A study of Ovis aries with 16 samples.

Results

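The genes described here encode 10 antioxidant enzymes of sheep fat: the superoxide dismutases SOD1, SOD2 and SOD3, the peroxide-removing enzymes CAT, GPX1, GPX3 and PRDX6, and the redox and haem enzymes HMOX1, NQO1 and TXNRD1. They were chosen by name, with earlier results of these data already known. All 10 were present in the deposited table of 28524 genes, each in 1 row, and all 10 passed the filter on low counts in every comparison. The samples came from female sheep of about 21 months. Their mothers had received either 0.5 mg/kg per day of bisphenol A (BPA, a plastics monomer with oestrogen-like activity) in corn oil, or corn oil alone, by daily subcutaneous injection on days 30 to 90 of a gestation of about 147 days. The 16 libraries form 4 groups of 4: visceral fat of BPA ewes, visceral fat of control ewes, subcutaneous fat of BPA ewes and subcutaneous fat of control ewes. Visceral fat was mesenteric fat beside the ventral rumen sac and subcutaneous fat was sternal. The ewes of all groups were kept on a maintenance diet, and tissue was taken in the follicular phase, 24 h after a prostaglandin injection that followed an earlier injection by 11 days. Each library is named by the number in its title. There are 11 such numbers, of which 5 occur in both depots, and the labels do not say more about which animal gave which sample, so p-values measure the spread between these samples.

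Respiration and oxidases release superoxide, which superoxide dismutases turn into hydrogen peroxide. Catalase, glutathione peroxidases and peroxiredoxins then remove the peroxide. The peroxidases and peroxiredoxins draw on glutathione and thioredoxin that are kept reduced with NADPH. Many genes of this system are switched on by the transcription factor NFE2L2 (NRF2), which the adaptor KEAP1 holds back and the repressor BACH1 opposes at some targets. In fat, the work of fatty acid oxidation and storage generates peroxide, and adipose tissue is a known source of the secreted glutathione peroxidase GPX3.

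Library totals were 6768945 to 14305764 counts in visceral BPA fat, 10998858 to 13110261 in visceral control fat, 3046126 to 4828287 in subcutaneous BPA fat and 4738482 to 6223460 in subcutaneous control fat. Every visceral library was deeper than every subcutaneous one, so depth and depot cannot be told apart. In subcutaneous fat every BPA library except 918 was shallower than every control, so depth and BPA can hardly be told apart there. The 13 adipocyte markers found in the table (of 14 listed) were detected in every library and summed to 14721 to 36514 CPM (counts scaled to a common library total). On principal components of log2 CPM, visceral BPA library 977 lay apart on the second (score -95.6, against -18.9 to 26.5 in the other 15), and subcutaneous controls 902 and 924 lay apart on the third (53.5 and 51.9, against -42.3 to 10.6 in the other 14). Calls of the 10 enzymes that rest on these 3 libraries are given with and without them. The 10 genes together took 0.4189% to 0.8309% of all counts in visceral BPA fat, 0.6174% to 0.7212% in visceral control fat, 0.2531% to 0.4833% in subcutaneous BPA fat and 0.3132% to 0.6229% in subcutaneous control fat.

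Among the 10 genes GPX3, the secreted glutathione peroxidase of blood plasma, had the highest level per gene length in every group. Its mean was 2836 ± 969 RPKM (CPM per kilobase of gene length; SD, n = 4) in visceral BPA fat, 2716 ± 259 RPKM in visceral control fat, 1081 ± 402 RPKM in subcutaneous BPA fat and 1406 ± 772 RPKM in subcutaneous control fat. In single libraries it ranked between place 5 and place 57 of 14793 genes by RPKM. CAT, the peroxisomal catalase, came second in all 4 groups, at 290 ± 131 RPKM in visceral BPA fat, 392 ± 48.2 RPKM in visceral control fat, 307 ± 57.8 RPKM in subcutaneous BPA fat and 381 ± 72.5 RPKM in subcutaneous control fat. Its range lay below that of GPX3 and overlapped that of SOD3 in all 4 groups.

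SOD3 (the extracellular superoxide dismutase), SOD1 (the copper-zinc enzyme of the cytosol) and PRDX6 (a peroxiredoxin that reduces peroxidised phospholipids) followed. Their group means lay between 100 RPKM (PRDX6, subcutaneous control) and 325 RPKM (SOD3, visceral control). In both visceral groups the ranges of these 3 genes overlapped along the order of levels, so their order there is not resolved. GPX1, the glutathione peroxidase of cytosol and mitochondria, averaged 106 ± 8.55 RPKM in visceral BPA fat, 110 ± 20.9 RPKM in visceral control fat, 47.6 ± 12.9 RPKM in subcutaneous BPA fat and 74.5 ± 4.06 RPKM in subcutaneous control fat. SOD2, the manganese enzyme of mitochondria, had group means of 55.8 to 90.2 RPKM, and its mean was below that of GPX1 in 3 groups and above it in subcutaneous BPA fat. The ranges of GPX1 and SOD2 overlapped in 3 groups and did not in subcutaneous control fat.

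The remaining enzymes were lower in all groups. TXNRD1, the cytosolic thioredoxin reductase, had group means of 17.2 to 25.3 RPKM. HMOX1, the inducible haem oxygenase, had 7.98 to 16 RPKM. NQO1, a quinone reductase, was last in all 4 groups at 3.64 to 6.13 RPKM, on 21 to 212 counts per library, and it is the least precisely counted of the 10.

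**Figure D1:**
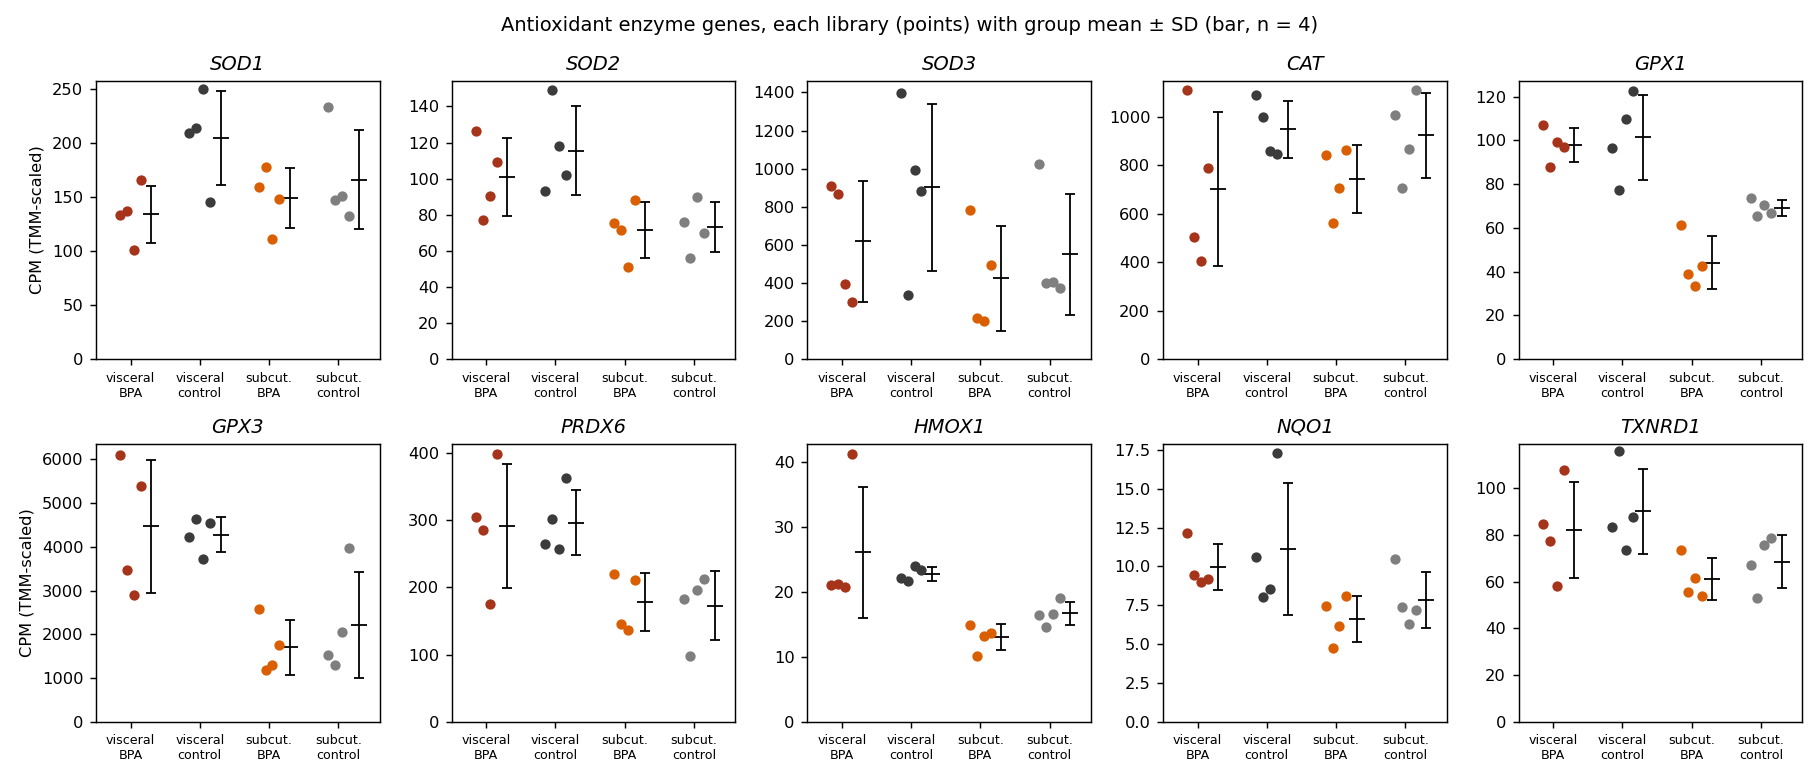
CPM on TMM-scaled library totals (vertical axis, from 0) of each of the 10 genes in visceral BPA, visceral control, subcutaneous BPA and subcutaneous control fat, with 1 point per library and the mean ± SD (n = 4) as a bar. GPX1 is lower in all 4 subcutaneous BPA libraries (33.5 to 61.1 CPM) than in the 4 subcutaneous controls (65.4 to 73.8 CPM), and HMOX1 in visceral BPA library 984 (41.2 CPM) stands above the other 15.

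Prenatal BPA was compared with control first in subcutaneous fat, which asks whether exposure in the womb left a difference in the adult depot. None of the 10 enzymes changed past the threshold (0 of 10 at an adjusted p under 0.05, edgeR), against a background of 0.709% of 13535 genes tested, 82 (0.606%) higher and 14 (0.103%) lower. At an unadjusted p under 0.05 there was 1 of the 10 (GPX1), beside 1926 of the 13535 genes, and DESeq2 called GPX1 among 469 genes in all. Estimates were lower in BPA fat for 9 of the 10 and higher for PRDX6. The median log2 fold change of the 10 was -0.275, beside -0.00574 over all genes tested.

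GPX1 showed the clearest separation. It had 61.1, 39.1, 33.5 and 42.7 CPM in subcutaneous BPA libraries 918, 922, 941 and 977, against 73.8, 65.4, 70.3 and 66.8 CPM in subcutaneous control libraries 902, 924, 928 and 931. All 4 BPA libraries were below all 4 controls, with BPA 918 nearest to them. GPX1 was the only gene of the 10 whose groups did not overlap in this depot, and 3.18% of all genes tested showed such a separation downwards. The mean was 44.1 ± 11.9 CPM in BPA fat and 69.1 ± 3.77 CPM in control fat (SD, n = 4 each), a log2 fold change of -0.64 ± 0.17 (SE; 95% interval -1.02 to -0.262). It did not pass the adjustment over all genes (edgeR, adjusted p = 0.138). Without BPA 918 the estimate was -0.83 and the adjusted p was 0.0371, and DESeq2 on all 8 libraries gave an adjusted p of 0.0419. A fit with library total as a covariate put the estimate at -0.31 (adjusted p = 0.776). Only BPA 918 was deeper than any control in this depot, so that fit can hardly part BPA from depth. The part of depth in the GPX1 difference was not tested otherwise. In whole tissue, fewer cells of a type and less RNA per cell cannot be told apart.

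Markers of macrophages and of connective tissue cells had lower estimates in the same libraries, most of them short of the threshold. Of 18 macrophage and monocyte markers 16 were in the table, and their summed level was 404 to 633 CPM in subcutaneous BPA fat against 715 to 1014 CPM in subcutaneous control fat, without overlap. No marker of that list was at 0 in a whole group. All 15 markers tested had lower estimates (median log2 fold change -0.888), and 1 of them passed the test. Of the 11 fibroblast and progenitor markers, 10 had lower estimates and 1 was called, with sums of 3186 to 5558 CPM in BPA fat against 5542 to 7963 CPM in control fat. Lymphocyte and endothelial markers also had mostly lower estimates (5 of 5 tested, median -0.869, and 8 of 9, median -0.246, none called). Adipocyte and smooth muscle markers had mostly higher ones (12 of 13, median 0.268, none called, and 8 of 9, median 0.425, 1 called). Skeletal muscle markers summed to 42.3 to 361 CPM in BPA fat against 29.3 to 72.3 CPM in control fat, with 1 tested and not called. Neutrophil markers, too low to be tested, summed to 0 to 1.76 CPM against 3.12 to 5.74 CPM. The part of these markers in the GPX1 difference was not tested.

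HMOX1, which breaks haem down to biliverdin, iron and carbon monoxide, had 14.9, 10.2, 13.2 and 13.7 CPM in subcutaneous BPA libraries 918, 922, 941 and 977, against 16.4, 14.7, 16.6 and 19.1 CPM in controls 902, 924, 928 and 931. BPA 918 lay just above control 924 and the other 3 BPA libraries lay below all controls. The difference was -0.36 ± 0.18 on the log2 scale and did not pass (edgeR, adjusted p = 0.417). CAT averaged 742 ± 140 CPM in BPA fat and 922 ± 175 CPM in control fat (log2 -0.31 ± 0.19, adjusted p = 0.493), with overlapping groups. The other 7 enzymes had adjusted p-values of 0.679 to 0.965. SOD2 and PRDX6 had the smallest estimates, at -0.03 ± 0.19 (95% interval -0.436 to 0.382) and 0.05 ± 0.24 (-0.475 to 0.577) on the log2 scale.

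SOD3 had an SD of 64.8% of its mean in subcutaneous BPA fat and 57.6% in subcutaneous control fat, beside 37.2% in BPA fat and 54.9% in control fat for GPX3. SOD3 had 782, 215, 202 and 493 CPM in BPA libraries 918, 922, 941 and 977, against 1024, 397, 404 and 375 CPM in controls 902, 924, 928 and 931. Control 902 stood far above the other 3 controls, and BPA 922 and 941 were the lowest of the 8. The log2 fold change was -0.38 ± 0.45 (adjusted p = 0.76), and it was 0.11 without control 902.

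**Figure D2:**
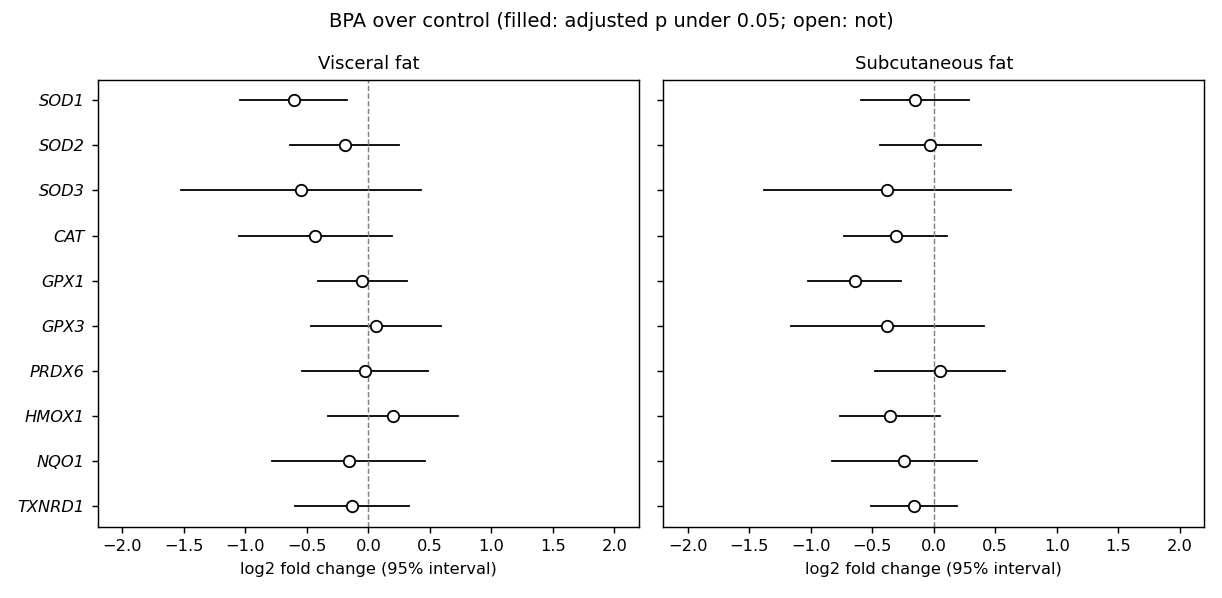
Log2 fold change of BPA over control (horizontal axis, with 95% interval, edgeR, 4 libraries a group) for each of the 10 genes in visceral fat (left) and subcutaneous fat (right), where open circles did not pass an adjusted p under 0.05. No gene is filled in either depot, and only the intervals of SOD1 in visceral fat (-1.04 to -0.171) and GPX1 in subcutaneous fat (-1.02 to -0.262) lie wholly below 0.

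The rest of the antioxidant system in subcutaneous fat was read from 7 lists of 82 genes (regulators of NRF2, glutathione system, thioredoxin and peroxiredoxin system, partners in copper, haem and iron handling, selenoprotein synthesis, NADPH supply and oxidant producers). Of these, 78 were in the table and 72 were tested. The test called 0 higher and 1 lower. FTL, the light chain of the iron store ferritin, had 11.6, 9.04, 12 and 14.6 CPM in BPA libraries 918, 922, 941 and 977, against 26.1, 30, 20.4 and 32.2 CPM in controls 902, 924, 928 and 931. The highest BPA value was below the lowest control. FTL fell by 1.195 ± 0.21 on the log2 scale (edgeR, adjusted p = 0.0312). The call was kept in 2 of the 8 omissions of a single library, with adjusted p-values of 0.0316 to 0.0979, and it was lost without controls 902 and 924 together (log2 -1.14, adjusted p = 0.221). It was also lost with voom on all 16 libraries (adjusted p = 0.151, and 0.224 with the replicate block) and with library total as a covariate (adjusted p = 0.187). The covariate fit can hardly part BPA from depth in this depot. Ferritin chains have processed copies in mammalian genomes, so reads could be split between copies.

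**Figure D3:**
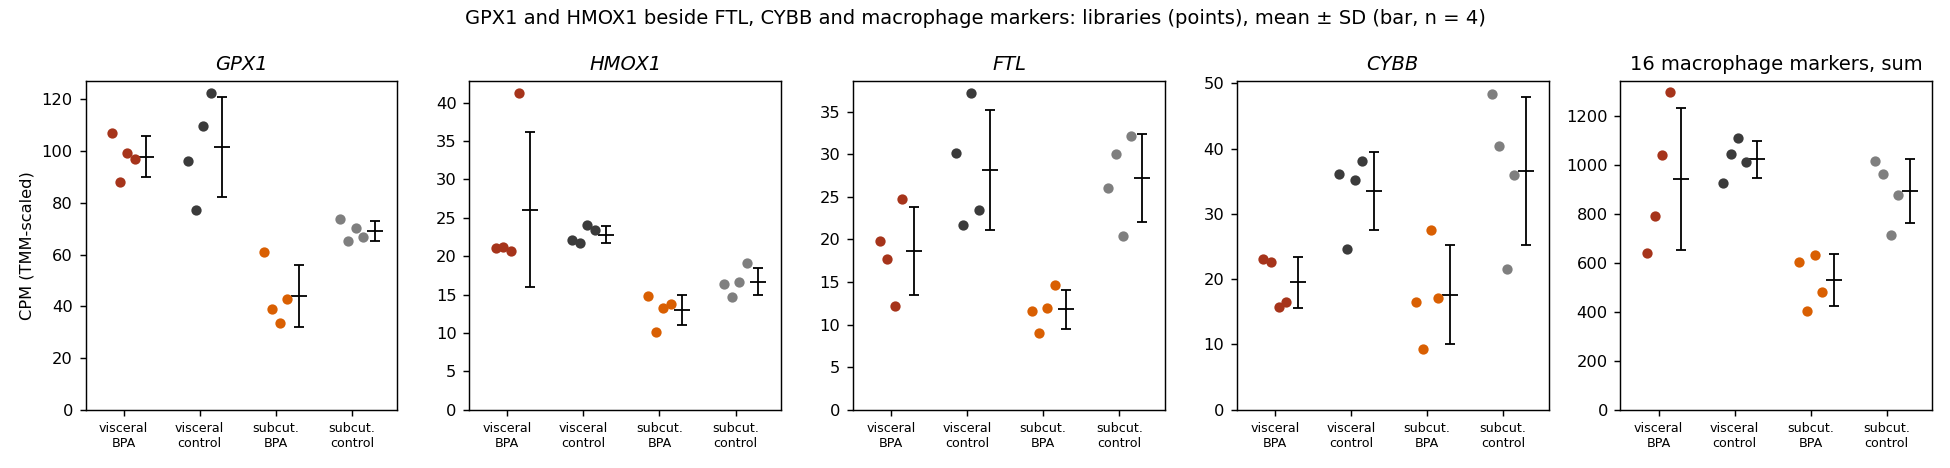
CPM (vertical axis, from 0) of GPX1, HMOX1, FTL, the oxidase subunit CYBB and the sum of 16 macrophage markers in visceral BPA, visceral control, subcutaneous BPA and subcutaneous control fat, with 1 point per library and the mean ± SD (n = 4) as a bar. The 4 subcutaneous BPA libraries are below the 4 subcutaneous controls for GPX1, FTL and the marker sum, while single libraries overlap for HMOX1 and CYBB.

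Among genes that did not pass, CYBB, the catalytic subunit of the phagocyte NADPH oxidase, had 17.6 ± 7.55 CPM in subcutaneous BPA fat and 36.5 ± 11.3 CPM in subcutaneous control fat (log2 -1.06 ± 0.32, adjusted p = 0.184). Of the 8 oxidant producers tested, 7 had lower estimates and the median was -0.876. CYBB is itself expressed by macrophages, whose markers summed lower in these libraries, and their part was not tested. GLRX, a glutaredoxin that uses glutathione, had 9.91 ± 2.27 CPM in BPA fat and 18.8 ± 3.62 CPM in control fat (log2 -0.93 ± 0.23, adjusted p = 0.104). TXNRD3, a thioredoxin reductase related to TXNRD1, lay in the other direction at 65.2 ± 11 CPM in BPA fat and 41.3 ± 5.18 CPM in control fat (log2 0.66 ± 0.16, adjusted p = 0.0995). KEAP1, the adaptor that holds NFE2L2 back, had 107 ± 15.3 CPM in BPA fat and 91 ± 10 CPM in control fat (log2 0.24 ± 0.14, adjusted p = 0.483).

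In visceral fat the comparison of BPA with control called 0 of the 10 enzymes, against a background of 0% of 14774 genes tested (edgeR). At an unadjusted p under 0.05 there were 1103 of all genes and 1 of the 10 (SOD1), and DESeq2 called 5 genes, none of them among the 10. Groups without overlap were 0 of the 10 in either direction, beside 2.06% of all genes higher and 1.96% lower in BPA fat. Estimates were lower in BPA fat for 8 of the 10, with a median log2 fold change of -0.146 beside 0.00188 over all genes.

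SOD1 had 133, 137, 101 and 165 CPM in visceral BPA libraries 910, 918, 977 and 984, against 209, 214, 250 and 145 CPM in visceral control libraries 902, 908, 924 and 928. The first 3 BPA libraries lay below all controls, and BPA 984 lay above control 928. The log2 fold change was -0.60 ± 0.20 (95% interval -1.04 to -0.171, edgeR, adjusted p = 0.658), and -0.50 without BPA 977. In subcutaneous fat the SOD1 estimate was -0.15 ± 0.20 (adjusted p = 0.782).

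CAT had 1109, 505, 404 and 789 CPM in visceral BPA libraries 910, 918, 977 and 984, against 1089, 998, 859 and 845 CPM in visceral controls 902, 908, 924 and 928. BPA 910 was above every control and the other 3 BPA libraries were below every control. The SD was 317 CPM in BPA fat and 117 CPM in control fat, and the log2 fold change was -0.43 ± 0.28 (adjusted p = 0.69). GPX3 also spread widely in BPA fat, at 6105, 3472, 2902 and 5401 CPM in 910, 918, 977 and 984, against 4224, 4627, 3726 and 4546 CPM in controls 902, 908, 924 and 928. BPA libraries 910 and 984 were above all controls and 918 and 977 below all controls, and the estimate was 0.06 ± 0.24 (adjusted p = 0.938).

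HMOX1 had 21.1, 21.2, 20.7 and 41.2 CPM in visceral BPA libraries 910, 918, 977 and 984, against 22.1, 21.7, 24 and 23.4 CPM in controls 902, 908, 924 and 928. BPA 984 alone was above the controls and the other 3 BPA libraries were below them by a small margin. The estimate of 0.20 ± 0.24 (adjusted p = 0.808) was -0.12 without BPA 984, so its sign rests on that library. GPX1, which separated the subcutaneous groups, had 107, 88, 99.5 and 97.1 CPM in visceral BPA libraries 910, 918, 977 and 984, against 96.4, 77.2, 110 and 123 CPM in visceral controls 902, 908, 924 and 928. These groups overlapped fully (log2 -0.05 ± 0.16, 95% interval -0.411 to 0.313, adjusted p = 0.93).

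Visceral BPA library 977, which lay apart on the second component, had the lowest visceral value of SOD1, CAT, GPX3, PRDX6 and TXNRD1. By a small margin it was also the lowest for HMOX1 (20.7 CPM). Without it, each of the 10 visceral BPA estimates changed by less than its standard error. TXNRD1 then stood at -0.01 and PRDX6 at 0.14 on the log2 scale, against -0.13 and -0.03 with it. Its mesothelial marker sum was 343.9 CPM, above the other visceral libraries. Smooth muscle markers had higher estimates in visceral BPA fat for 9 of 9 tested (median 1.17). They summed to 1508 to 4897 CPM, against 1272 to 2105 CPM in control fat. Mostly lower were endothelial (8 of 9, median -0.214), fibroblast and progenitor (8 of 11, median -0.197), macrophage (9 of 15, median -0.125) and adipocyte markers (8 of 13, median -0.0362). None of these markers was called, and their part was not tested. Of the 76 other antioxidant genes tested in visceral fat, 0 were called. CYBB had 19.5 ± 3.93 CPM in BPA fat and 33.5 ± 6 CPM in control fat (log2 -0.78 ± 0.20, adjusted p = 0.658). MGST1, a membrane-bound glutathione transferase, had 60.9 ± 19.8 CPM in BPA fat and 98.8 ± 15.5 CPM in control fat (log2 -0.69 ± 0.23, adjusted p = 0.658). FTL had 18.6 ± 5.21 CPM in BPA fat and 28.2 ± 7.06 CPM in control fat (log2 -0.59 ± 0.25, adjusted p = 0.658).

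Whether the BPA effect differed between depots was tested as the difference of both effects over all 16 libraries. It called 0 of the 10 enzymes, against a background of 0% of 14793 genes tested (917 genes at an unadjusted p under 0.05, 1 of the 10 among them, and 12 genes called by DESeq2, none of the 10). GPX1 had the smallest p of the 10. Its visceral BPA effect minus its subcutaneous BPA effect was 0.59 ± 0.24 on the log2 scale (95% interval 0.0821 to 1.1, edgeR, adjusted p = 0.738). For HMOX1 the difference was 0.56 ± 0.30 (adjusted p = 0.865), and 0.24 without visceral BPA 984. For SOD1 it was -0.46 ± 0.30 (adjusted p = 0.92). The other 7 estimates lay between -0.17 and 0.44, with adjusted p-values of 0.999 or above.

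The comparison of visceral with subcutaneous fat in control ewes asks how the depots differ without exposure, and 3 of the 10 enzymes were higher in visceral fat: SOD2, GPX1 and PRDX6. The background was 13.3% of 14456 genes called, 7.17% higher and 6.16% lower in visceral fat. Estimates were higher in visceral fat for all 10, with a median log2 fold change of 0.538 beside -0.00687 over all genes. In 4 of the 10 (SOD2, GPX1, PRDX6 and HMOX1) every visceral library was above every subcutaneous one, which was so for 10.2% of all genes tested, and the reverse held for 0 of the 10 and for 9.74% of all genes.

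PRDX6 had 265, 301, 257 and 362 CPM in visceral controls 902, 908, 924 and 928, against 183, 98.5, 197 and 213 CPM in subcutaneous controls 902, 924, 928 and 931. The log2 fold change was 0.79 ± 0.22 (1.73-fold, edgeR, adjusted p = 0.0398). SOD2 had 92.9, 149, 118 and 102 CPM in visceral controls 902, 908, 924 and 928, against 75.8, 56.2, 89.8 and 70.1 CPM in subcutaneous controls 902, 924, 928 and 931. The lowest visceral value was only a little above the highest subcutaneous one. SOD2 was higher by 0.67 ± 0.18 (1.59-fold, adjusted p = 0.035). GPX1 was higher by 0.56 ± 0.15 (1.48-fold, adjusted p = 0.0316), at the library values given above.

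These 3 calls were close to the threshold. Under the 8 omissions of a single library SOD2 was called in 2, GPX1 in 1 and PRDX6 in 3, while their estimates stayed between 0.46 and 0.91. Without subcutaneous controls 902 and 924 together they were 0.52, 0.56 and 0.53, with adjusted p-values of 0.173, 0.121 and 0.121. PRDX6 was also lost in 1 edgeR fit of all 16 libraries (adjusted p = 0.0613) and with voom without a replicate block (0.0536). With library total as a covariate none of the 10 was called and GPX1 was at -0.39, but no gene of the table was called either. Every visceral library was deeper than every subcutaneous one, so that fit cannot part depot from depth and cannot decide these calls.

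GPX3 and HMOX1 lay just outside the threshold in control ewes. GPX3 had 4224, 4627, 3726 and 4546 CPM in visceral controls 902, 908, 924 and 928, against 1525, 1301, 2060 and 3978 CPM in subcutaneous controls 902, 924, 928 and 931. Subcutaneous control 931 alone reached the visceral range. The log2 fold change was 0.96 ± 0.31 (1.94-fold, adjusted p = 0.0628), and 1.41 without that library (adjusted p = 0.00266). HMOX1 was higher by 0.46 ± 0.15 (1.37-fold, adjusted p = 0.0617). With the number as a fixed block, the estimate rests on the 3 numbers present in both control depots. Visceral 908 and subcutaneous 931, which alone reached the visceral range of GPX3, do not bear on it. In that fit GPX3 was higher by 1.38 ± 0.15 (edgeR, adjusted p = 0.000362) and SOD3 by 0.97 ± 0.18 (adjusted p = 0.00486), both past the threshold. GPX1 (0.65 ± 0.14, adjusted p = 0.0101) and PRDX6 (0.93 ± 0.17, adjusted p = 0.00446) stayed past it, and SOD2 did not (0.51 ± 0.17, adjusted p = 0.0662).

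In BPA ewes the same comparison found GPX1, GPX3 and HMOX1 higher in visceral fat, 3 of 10, against a background of 9.07% of 13782 genes called, 5.13% higher and 3.94% lower. Estimates were higher for 8 of the 10 and lower for SOD1 and CAT, with a median log2 fold change of 0.565 beside 0.0237 over all genes. Groups did not overlap for GPX1, GPX3, HMOX1 and NQO1, and 9.58% of all genes showed such a separation upwards and 9.03% downwards (0 of the 10). GPX1 averaged 97.9 ± 7.93 CPM in visceral BPA fat and 44.1 ± 11.9 CPM in subcutaneous BPA fat. It was higher by 1.15 ± 0.19 on the log2 scale (2.21-fold, edgeR, adjusted p = 0.00882), and its call was kept under all 8 omissions of a single library, at 1.04 to 1.35. With library total as a covariate it was 0.82 (adjusted p = 0.283), a fit that again cannot part depot from depth.

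GPX3 was higher by 1.39 ± 0.31 (2.62-fold, adjusted p = 0.0237), at 4470 ± 1527 CPM in visceral BPA fat and 1704 ± 633 CPM in subcutaneous BPA fat. HMOX1 was higher by 1.005 ± 0.27 (2.01-fold, adjusted p = 0.0427), at 26.1 ± 10.1 CPM in visceral BPA fat and 13 ± 2 CPM in subcutaneous BPA fat. Over the 8 omissions of a single library GPX3 was called in 3, with adjusted p-values up to 0.08. HMOX1 was called in 1, the omission of visceral BPA 977, with adjusted p-values up to 0.129, and its lowest estimate was 0.69 without visceral BPA 984 (adjusted p = 0.0802). NQO1 had 12.2, 9.47, 9 and 9.2 CPM in visceral BPA libraries 910, 918, 977 and 984, against 7.43, 4.75, 6.17 and 8.09 CPM in subcutaneous BPA libraries 918, 922, 941 and 977, and did not pass (log2 0.59 ± 0.26, adjusted p = 0.183). Without visceral BPA 977, PRDX6 also passed (0.88 ± 0.21, adjusted p = 0.0224). With library total as a covariate, which cannot be parted from depot, none of the 10 did.

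The comparisons in BPA ewes and in control ewes use the same groups as the BPA comparisons, so the larger GPX1 ratio between depots in BPA ewes (2.21-fold, against 1.48-fold in control ewes) and the lower GPX1 level in subcutaneous BPA fat rest on the same 4 libraries. The test of that difference is the one over 16 libraries given above (adjusted p = 0.738). Mesothelial markers, which mark the lining of the abdominal cavity, moved with depot. Of 9 markers 8 were in the table, and they summed to 31.6 to 344 CPM in visceral BPA fat, 59.8 to 131 CPM in visceral control fat, 1.86 to 5.62 CPM in subcutaneous BPA fat and 4.3 to 9.05 CPM in subcutaneous control fat, with LRRN4 at 0 in all 8 subcutaneous libraries. In BPA ewes the macrophage and monocyte markers had higher estimates in visceral fat for 15 of 15 tested (4 called, median 0.935), with sums of 641 to 1298 CPM in visceral BPA fat and 404 to 633 CPM in subcutaneous BPA fat. In control ewes they were higher for 6 of 15 (1 called, median -0.0412). Adipocyte markers there were higher for 11 of 13 (3 called, median 0.481), and fibroblast and progenitor markers were lower for 8 of 11 (4 called, median -0.528). In BPA ewes these were higher for 7 of 13 (0 called, median 0.0245) and lower for 7 of 11 (2 called, median -0.24). Smooth muscle markers were higher in visceral fat for 9 of 9 in control ewes (1 called, median 0.647) and 8 of 9 in BPA ewes (1 called, median 1.68). Endothelial markers were higher for 7 of 9 in both (medians 0.386 and 0.347, 1 called in each). The part of any of these lists in the differences between depots was not tested.

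**Figure D4:**
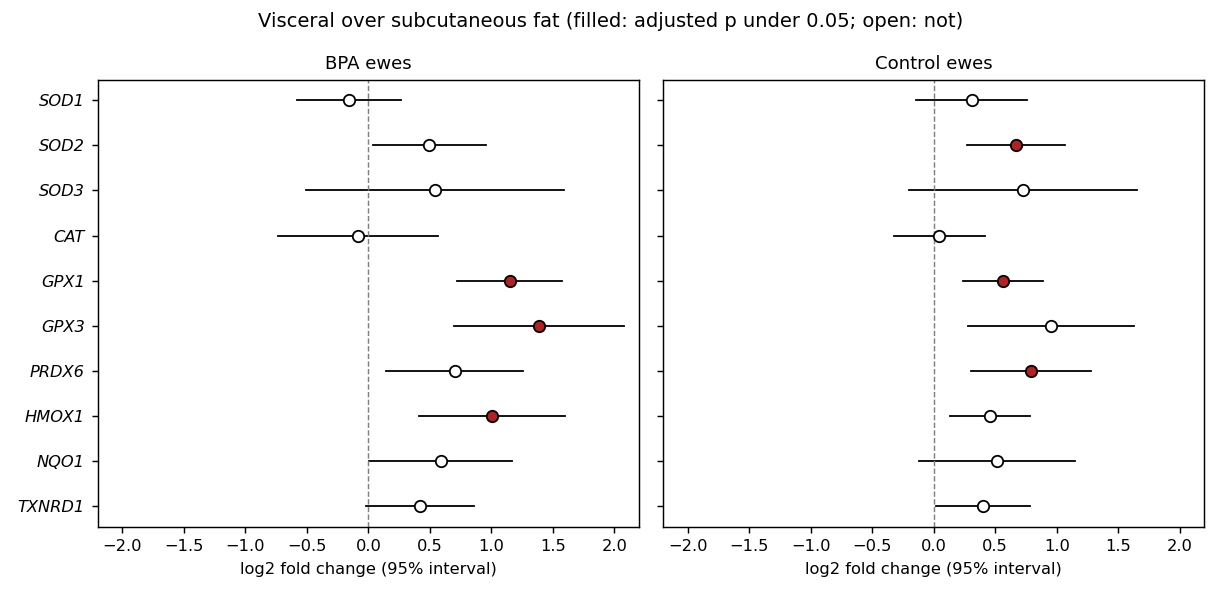
Log2 fold change of visceral over subcutaneous fat (horizontal axis, with 95% interval, edgeR, 4 libraries a group) for each of the 10 genes in BPA ewes (left) and control ewes (right), where filled circles passed an adjusted p under 0.05. GPX1 is filled on both sides (1.15 in BPA ewes and 0.56 in control ewes), GPX3 and HMOX1 only in BPA ewes, and SOD2 and PRDX6 only in control ewes, with no test of that difference passed. These fits leave out the pairing by number. With the number as a fixed block in edgeR, GPX3 passed in control ewes (adjusted p = 0.000362) and not in BPA ewes (0.176). HMOX1 then did not pass in BPA ewes (0.336), nor SOD2 in control ewes (0.0662).

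In the wider antioxidant lists 8 of 76 genes tested in control ewes were higher and 5 lower in visceral fat, beside 7.17% of all genes higher and 6.16% lower, so these counts are near the background. ME1, the malic enzyme that supplies NADPH in the cytosol, had 70.4 ± 11.4 CPM in visceral and 32.5 ± 5.84 CPM in subcutaneous control fat (log2 1.12 ± 0.17, 2.18-fold, adjusted p = 0.00222). Higher too were NFE2L1, a relative of NFE2L2 (0.71 ± 0.16, adjusted p = 0.0158), and SRXN1, the sulfiredoxin that repairs over-oxidised peroxiredoxins (0.62 ± 0.16, adjusted p = 0.0252). The glutathione transferases MGST1, GSTK1 and MGST2 were higher by 0.71, 0.70 and 1.45, the ferritin heavy chain FTH1 by 0.80 and the monoamine oxidase MAOB by 0.84. BACH1, the repressor of HMOX1 and other NRF2 targets, fell by 0.61 ± 0.13 (adjusted p = 0.0113), at 48 ± 5.61 CPM in visceral and 73.8 ± 4.04 CPM in subcutaneous control fat. PRDX4, the peroxiredoxin of the endoplasmic reticulum, NQO2, a quinone reductase related to NQO1, SEPHS1, related to selenophosphate synthetase, and LRP8, a receptor for selenoprotein P, were lower, with log2 fold changes of -0.58, -0.64, -0.69 and -1.196. Under the 8 omissions of a single library ME1, NFE2L1, BACH1 and MGST1 were called in all 8, and the other 9 genes in 1 (MAOB) to 6 (SEPHS1). Without subcutaneous controls 902 and 924 together, 7 of the calls were lost: NFE2L1 (adjusted p = 0.102), MGST2 (0.201), SRXN1 (0.0951), FTH1 (0.22), NQO2 (0.146), LRP8 (0.106) and MAOB (0.0909). MGST1 was lost in 1 fit of all 16 libraries (adjusted p = 0.0572) and with voom (0.0539). With library total as a covariate, which cannot be parted from depot, no gene of the table was called.

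In BPA ewes 1 of 73 such genes was higher and 3 were lower in visceral fat, beside 5.13% of all genes higher and 3.94% lower. SRXN1 had 49.6 ± 6.74 CPM in visceral and 27.7 ± 5.12 CPM in subcutaneous BPA fat (log2 0.84 ± 0.18, adjusted p = 0.0202). PRDX4, NQO2 and SEPHS1 fell by 0.66, 0.73 and 0.66. All 4 were also called in the same direction in control ewes. With the number as a fixed replicate block in edgeR all 4 calls in BPA ewes were lost (adjusted p-values of 0.122 for SRXN1, 0.253 for PRDX4, 0.175 for NQO2 and 0.317 for SEPHS1), as was PRDX4 in control ewes (0.0536). Over single omissions in BPA ewes SRXN1 was called in 5 of 8, PRDX4 and NQO2 in 2 each and SEPHS1 in 1. With library total as a covariate, which cannot be parted from depot, none of the 4 was called.

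The 5 numbers that occur in both depots allow the ratio of visceral to subcutaneous fat to be read within a number. It was above 1 in 5 of 5 for SOD2, GPX1, GPX3, HMOX1, NQO1 and TXNRD1, and the share of all genes with that count was not computed. Several of these ratios were close to 1. SOD2 had 1.02 and 1.03 and TXNRD1 1.05 and 1.08 in BPA 918 and 977, and NQO1 had 1.02 in control 902. GPX1 ratios were 1.44 and 2.33 in BPA 918 and 977, and 1.31, 1.68 and 1.74 in controls 902, 924 and 928. GPX3 ratios were 1.35 and 1.66 in BPA 918 and 977, and 2.77, 2.86 and 2.21 in controls 902, 924 and 928. All 3 control ratios of GPX3 were above both BPA ratios. CAT ratios were 0.6 and 0.468 in BPA 918 and 977, and 1.08, 1.22 and 0.976 in controls 902, 924 and 928, so both BPA numbers had less CAT in visceral than in subcutaneous fat. With these numbers as a block CAT was lower in visceral fat of BPA ewes (log2 -0.91 ± 0.23, adjusted p = 0.0226), and GPX3 (0.58 ± 0.24, adjusted p = 0.176) and HMOX1 (0.56 ± 0.32, adjusted p = 0.336) no longer passed. Only 2 numbers are shared in BPA ewes, and for 977 neither library was most like the other: visceral 977 correlated best with subcutaneous 941, and subcutaneous 977 with visceral 910. The BPA ratios and the block in BPA ewes rest on that pair as well.

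**Figure D5:**
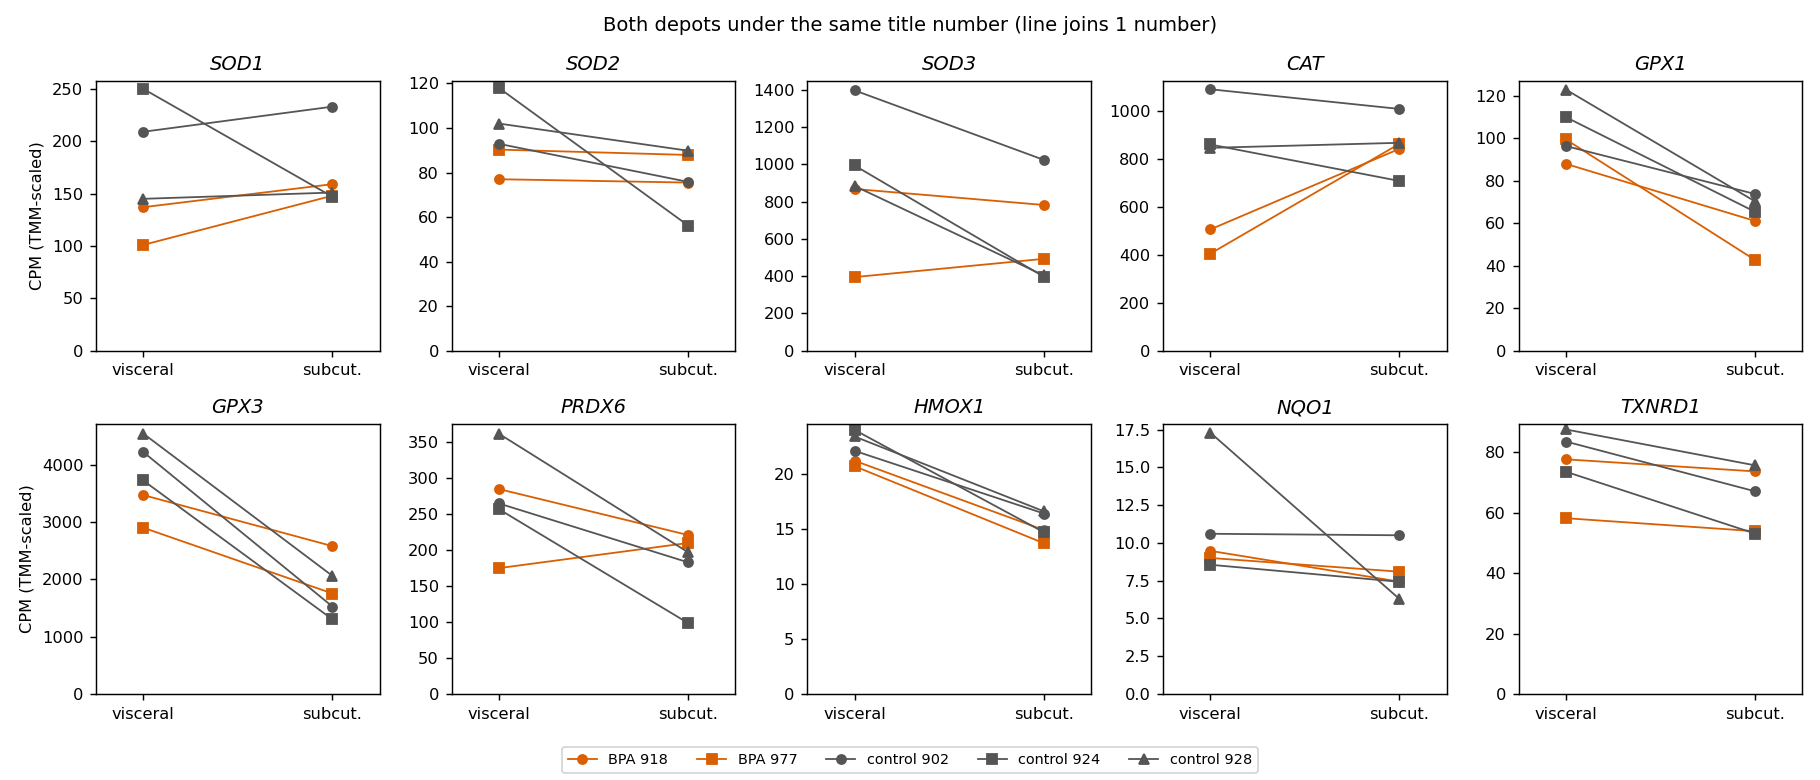
CPM (vertical axis, from 0) of the 10 genes in visceral (left) and subcutaneous (right) fat for the 5 numbers present in both depots, with a line joining the libraries of 1 number. GPX1, GPX3 and HMOX1 are higher in visceral fat on all 5 lines (GPX1 ratios 1.31 to 2.33), while SOD1 is on only 1 of 5.

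After each library's group mean was removed, 37 of the 45 pairs among the 10 genes had a positive Pearson r over the 16 libraries, with a median of 0.312 and a range of -0.177 to 0.768. Over all pairs of the 14793 genes 50% were positive. SOD1 had no r above 0.395 with another of the 10, and NQO1 had negative r with SOD1, SOD2 and TXNRD1. The highest were GPX3 with PRDX6 (0.768), PRDX6 with TXNRD1 (0.764) and CAT with GPX3 (0.748). The libraries share depth and tissue make-up across genes, so these r are descriptions. Of all 14792 other genes the 2 with the highest r were MRCL3 (0.965) and RRAGC (0.961) for PRDX6, PGRMC2 (0.938) and PDZD8 (0.933) for TXNRD1, F11R (0.936) and KLHL9 (0.922) for CAT, and LMO4 (0.935) and TENM4 (0.922) for SOD3. For GPX3 they were MAPK3 (0.907) and FTH1 (0.903), for NQO1 LOC114114912 (0.904) and FAM168A (0.818), for HMOX1 LRRC8C (0.87) and HSPH1 (0.865), for GPX1 EIF4G3 (0.866) and MYH10 (0.857), for SOD2 AP1AR (0.844) and THRB (0.843), and for SOD1 MFSD6 (0.811) and WDR45B (0.803).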

How the data were processed

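Counts are whole-number reads per gene deposited by the authors, who, per the submitters' processing notes, used FastQC 0.11.5, MultiQC 0.9, STAR 2.6.0c and featureCounts of Subread 1.6.1. Ribosomal RNA was depleted and a low-input kit used, per the labels' protocols. The file's name calls the values normalized, but all are whole and totals run from 3046126 to 14305764, so they were treated as raw counts. The sources used here give neither genome build nor strand setting, so no positions are printed, and reads of overlapping antisense genes cannot be told apart. No sequences are printed.

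Each comparison was fitted on the whole table with edgeR 4.0.16 in R 4.3.3 (filterByExpr with a count of 10 and a total of 15, TMM factors, two-sided quasi-likelihood test), with Benjamini-Hochberg adjustment over all genes and calls at an adjusted p under 0.05. Standard errors and 95% intervals derive from the estimate, the F value and its degrees of freedom. CPM uses TMM-scaled totals of all 16 libraries, and RPKM the deposited gene lengths. Alternatives were DESeq2 1.42.0, voom of limma 3.58.1, other scalings and filters, a depth covariate, thinning, a replicate block and omission of libraries. Scripts were tested on simulated data. No 2 of the 120 pairs of libraries held identical values.

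Genes named are the 10 enzymes in every comparison, from each antioxidant list the called genes (4 of smallest p at most) or else the 1 of smallest p, and the 2 genes most like each enzyme; values are given for part of them. The enzymes, lists, tests and alternatives were chosen with earlier results of these data known.

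The numbers were checked as pairs by the correlation of deviations from group means. In control ewes it was 0.287, 0.4 and 0.332 (902, 924 and 928), and all 6 libraries had their highest correlation with the library of the same number, so these were taken as pairs. In BPA ewes it was 0.167 (918) and 0.0313 (977), and the libraries of 977 each had their highest correlation with another number.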

Additional observations from a re-analysis of the deposited data

Results flagged for a closer look

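In 40 sets of 4 libraries (10 genes in 4 groups), 3 held a library far from the other 3, with a gap to its nearest fellow above Dixon's 95% critical share of the group's range. Chance flags about 1 in 20 such sets. SOD3 in subcutaneous control 902 was at 1024 CPM, with a gap of 0.955 of the range, and the BPA estimate for SOD3 in that depot was 0.11 without it. HMOX1 in visceral BPA 984 was at 41.25 CPM (0.975 of the range). NQO1 in visceral BPA 910 was at 12.17 CPM (0.852 of the range), and its depot estimate in BPA ewes was 0.47 without that library.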

How the results depend on the processing

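Without exception the scaling factors, the filters and robust moderation left the number of the 10 enzymes called as reported in all 5 comparisons. For BPA in subcutaneous fat it was 1 with DESeq2 and 0 to 1 over omissions of a single library, and in visceral fat it was 0 throughout. Between depots in control ewes it was 5 with DESeq2, 1 (GPX1) when every library was thinned to the lowest total, 0 with the library total as a covariate, 0 without subcutaneous controls 902 and 924 together, and 0 to 2 over single omissions. In BPA ewes it was 0 with the total as a covariate and 1 to 4 over single omissions. The cause of these changes was not tested. The omissions also left fewer libraries, and the part of that was not tested either.

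Over all genes, the 96 calls for BPA in subcutaneous fat became 469 with DESeq2, 173 unfiltered, 54 under a filter of 50 counts in 4 libraries, 46 in 1 fit of all 16, 1 with voom, 13 with the covariate, 0 without controls 902 and 924, and 32 to 128 over single omissions. The 0 in visceral fat became 5 with DESeq2 and 1 with the covariate. The 1928 between depots in control ewes became 0 with the covariate, 1138 without 902 and 924, and 1043 to 1755 over single omissions. The 1250 in BPA ewes became 2201 with DESeq2, 2408 in 1 fit of all 16, 1971 with voom, 225 with the covariate and 369 to 2206 over single omissions.

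A replicate block on the title number in voom (correlation 0.235) gave 4 called enzymes between depots in control ewes and 3 in BPA ewes. A fixed replicate block in edgeR gave 4 and 2, and changed SOD3 in BPA ewes to -0.080. Under the voom block GPX3 in visceral BPA fat was at -0.13 (-0.0074 without the block), TXNRD1 in the difference of BPA effects at -0.019, and 2300 genes were called between depots in BPA ewes.

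Signs turned as follows, on the log2 scale. With the covariate, for BPA in subcutaneous fat SOD1 was 0.31, SOD2 0.38 and SOD3 0.69, and in visceral fat PRDX6 0.26 and TXNRD1 0.041. The covariate can hardly be parted from BPA in subcutaneous fat. It cannot be parted from depot, so its signs between depots decide nothing about depot. Between depots in control ewes SOD1 was -0.40, SOD3 -2.18, GPX1 -0.39, NQO1 -1.26, GSTK1 -0.16 and SEPHS1 0.23. In BPA ewes SOD2 was -0.083, SOD3 -0.21, PRDX6 -0.58, TXNRD1 -0.34 and ME1 -0.40, and in the difference of effects TXNRD1 was -0.059. With thinning, NQO1 was 0.094 for BPA in subcutaneous fat, and in the difference NQO1 was -0.22 and TXNRD1 -0.034. Without 902 and 924, SOD1 was 0.087, SOD3 0.13 and PRDX6 -0.19 for BPA in subcutaneous fat, CAT was -0.071 between depots in control ewes, and PRDX6 was 0.17 and NQO1 -0.14 in the difference.

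Over single omissions the estimates that turned ranged as follows. For BPA in subcutaneous fat SOD1 was -0.24 to 0.061, SOD2 -0.13 to 0.11, SOD3 -0.84 to 0.11, GPX3 -0.63 to 0.071 and PRDX6 -0.14 to 0.17. In visceral fat GPX1 was -0.16 to 0.059, GPX3 -0.13 to 0.21, PRDX6 -0.22 to 0.14, HMOX1 -0.12 to 0.29, NQO1 -0.29 to 0.14 and TXNRD1 -0.29 to 0.0098. CAT was -0.071 to 0.16 between depots in control ewes and -0.40 to 0.11 in BPA ewes. In the difference SOD3 was -0.66 to 0.31, CAT -0.43 to 0.071, GPX3 -0.0050 to 0.71, PRDX6 -0.27 to 0.12, NQO1 -0.092 to 0.38 and TXNRD1 -0.13 to 0.18. Depth limits NQO1 most, at 21 to 36 counts in subcutaneous BPA fat, and intervals between 4 libraries a group leave changes of the size of the estimates undetected.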
